A study of Mus musculus with 6 samples.

Results

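Genes of the acute phase response and of serum transport were followed in RNA sequencing of mouse embryonic fibroblasts (MEFs). They were the rows of the deposited table whose gene symbol is Saa3, Saa2, Hp, Lcn2, Lbp, Cp, Trf, Clu, Itih4 or Apod, 10 of 18872 genes, called the members. The table has 3 libraries with the label SARAF-KO and 3 with the label SARAF-WT, called KO-labelled and WT-labelled below, all from primary MEFs of the B6 strain that were taken from the trunks of E14.5 embryos and grown to subconfluence. SARAF, a membrane protein of the endoplasmic reticulum, limits the entry of Ca2+ through store-operated channels, and the comparison asks which RNAs differ when the gene has been inactivated. As the study defines its mouse lines, SARAF-KO animals carried floxed Saraf alleles and the PGK-Cre transgene (SARAF fl/fl, PGK-Cre+). The ubiquitous PGK promoter of this transgene drives Cre. SARAF-WT animals were floxed littermates without Cre. By this definition both groups came from the floxed line. Cre belonged to the SARAF-KO group alone, where it removes the floxed exon. No genotype is given for the single embryos. The embryo behind each library is not given, so p-values measure the spread between these libraries, which may be technical.

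The acute phase response is the change in plasma proteins that follows infection or injury. Interleukin 6 and interleukin 1 are its main inducers, and their signals reach the genes of the liver through STAT3, NF-κB and the C/EBP transcription factors. Fibroblasts and other cells outside the liver also make several of these proteins, Saa3 and Lcn2 among them, and the carriers of the group bind iron, copper, haemoglobin, lipopolysaccharide or lipid.

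Recovered reads per library, obtained by dividing the normalized counts by the value of 1 read, summed to 32799080 to 37979662 in the SARAF-KO group and to 24595137 to 32228588 in the SARAF-WT group. Values below are normalized counts, that is, reads divided by the size factor of the library. Saraf itself ran against the labels. It had 4631, 4476 and 4384 normalized counts in KO-labelled libraries, against 3268, 3409 and 3306 in WT-labelled libraries (log2 difference 0.43, standard error 0.03, limma adjusted p = 4.2e-12). A count over all exons cannot show the loss of 1 exon, so this value checks the label only in part. Whether the labels of the groups were exchanged in the table is not settled, and if they were, every direction below would be reversed. Directions are given by the label of the library. Fibroblast markers were abundant in both groups, with summed normalized counts of 332323 to 338376 in KO-labelled libraries and 406938 to 411809 in WT-labelled libraries, and 7 of the 10 were lower and 2 higher.

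A mean of at least 10 normalized counts, the minimum for testing, was met by 9 of the 10 genes, and all 9 passed an adjusted p under 0.05 in limma on log2(normalized count + 1). Saa3, Trf, Hp, Lcn2 and Cp were higher in KO-labelled libraries, and Itih4, Apod, Lbp and Clu were lower. Saa2 was too low to be tested. These counts stand against a broad background, since 56.2% of the 13986 genes tested passed the same threshold, 28.2% as higher and 28.0% as lower in KO-labelled libraries. The groups did not overlap for any of the 10 genes, and the same was true of 61.4% of the genes tested. The median absolute log2 difference of the 9 was 1.21, against 0.16 over all genes tested, and their signed median was 0.55, against -0.00. Of the 9, 5 (Saa3, Trf, Lbp, Itih4 and Apod) differed by at least 1 on the log2 scale, as did 4.69% of all genes tested that also passed. The genes were picked with earlier results of these libraries known, and Saa2, Lbp, Trf, Itih4 and Apod are among those the study itself displayed from them, so neither the counts nor the directions are independent evidence.

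**Figure D1:**
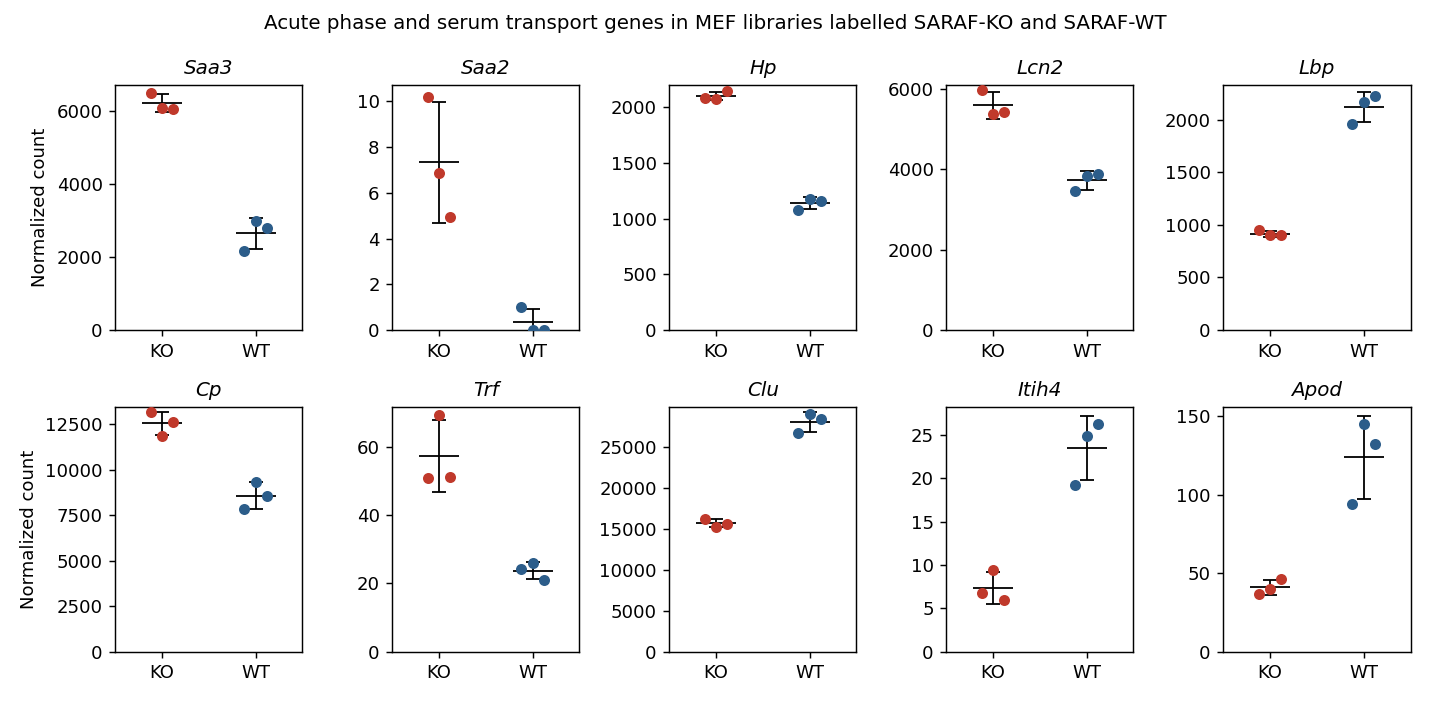
Normalized counts (vertical axis, a scale of its own for each gene, starting at 0) of the 10 genes in 3 KO-labelled libraries (red, left) and 3 WT-labelled libraries (blue, right). Points are libraries, the wide line is the group mean and the bars are 1 SD. In all 10 panels the points of both groups are separate, with Saa3 at 6078 to 6509 in KO-labelled libraries and 2171 to 2996 in WT-labelled libraries, and Clu at 15236 to 16205 in KO-labelled and 26644 to 28937 in WT-labelled libraries.

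Serum amyloid A proteins bind lipids and join high-density lipoprotein during inflammation. Saa3, the member of the family made mainly outside the liver in mice, had 6509, 6102 and 6078 normalized counts in KO-labelled libraries, against 2171, 2996 and 2792 in WT-labelled libraries. The lowest KO-labelled value was over the highest WT-labelled value, and the ratio of the means was 2.35. The log2 difference was 1.24 with a standard error of 0.065 (limma adjusted p = 2.9e-14). The coefficient of variation of Saa3 was 3.88% in KO-labelled and 16.2% in WT-labelled libraries, where counting error alone would give 1.20% and 2.06%. The library SARAF-WT 1 was the low one, and without it the log2 difference was 1.11. Saa3 lies on chromosome 7 (GRCm38, 46711998 to 46715700, minus strand).

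Saa2, an inducible serum amyloid of the liver that lies 36.1 kb from Saa3 (chromosome 7, 46751790 to 46754313, plus strand), was close to the limit of detection. It had 12, 8 and 5 recovered reads in KO-labelled libraries, or 10.2, 6.85 and 4.93 normalized counts, against 1, 0 and 0 reads in WT-labelled libraries. Summed over libraries and scaled for depth, 25 reads against 1 gave a ratio of 20.2, with a 95% interval of 3.31 to 829 that covers counting error only. The groups did not overlap, and the exact permutation test (two-sided) gave p = 0.1, the smallest that 3 libraries against 3 allow. Of the 60-base stretches of Saa2 transcripts, 24.9% also occur in Saa1, so reads of this pair may be split or lost in counting. The description printed on the Saa2 row is that of Saa1, which has a row of its own. Saa1 was as scarce, at 2.97 ± 1.27 normalized counts in KO-labelled libraries and 0.69 ± 1.20 in WT-labelled libraries (SD, n = 3 each).

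Haptoglobin and lipocalin 2 remove iron sources from plasma. Hp encodes haptoglobin, which binds free haemoglobin, and had 2087, 2075 and 2147 normalized counts in KO-labelled libraries, against 1075, 1176 and 1162 in WT-labelled libraries. Both groups were tight, and the difference of 0.89 on the log2 scale (standard error 0.04) was far larger than the spread within them (limma adjusted p = 8.5e-16). Hp lies on chromosome 8 (109575128 to 109579172, minus strand). In the table the Hp row carries the description of Dlc1, a gene that has HP as an alias. Dlc1 has a row of its own at 3113 ± 150 normalized counts in KO-labelled libraries and 3302 ± 44.4 in WT-labelled libraries, and the rows were taken by symbol.

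Lcn2 encodes lipocalin 2, which captures the siderophores with which bacteria take up iron. It had 5972, 5381 and 5420 normalized counts in KO-labelled libraries, against 3461, 3823 and 3891 in WT-labelled libraries, with no overlap. The means were 5591 ± 330 in KO-labelled and 3725 ± 231 in WT-labelled libraries (SD, n = 3 each), a log2 difference of 0.59 (standard error 0.04, limma adjusted p = 3.5e-12). The gene is on chromosome 2 (32384633 to 32388252, minus strand). Slc22a17, a receptor for lipocalin 2, ran the other way and had 401, 407 and 359 normalized counts in KO-labelled libraries, against 707, 709 and 771 in WT-labelled libraries (log2 difference -0.91, limma adjusted p = 3.9e-12).

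The carriers of copper and iron rose as well. Cp encodes ceruloplasmin, the copper-carrying ferroxidase of plasma, and had 13136, 11846 and 12626 normalized counts in KO-labelled libraries, against 7837, 9318 and 8554 in WT-labelled libraries. The groups did not overlap, although the gap between the lowest KO-labelled and the highest WT-labelled library was smaller, relative to the spread, than for Hp. The log2 difference was 0.55 with a standard error of 0.04 (limma adjusted p = 3.6e-11), the smallest absolute difference of the 9 tested members, and was 0.49 without SARAF-WT 1. Cp lies on chromosome 3 (19957054 to 20009145, plus strand), and 108 bases of its exons overlap Hps3 on the other strand. The kit does not mark strand, so reads in those bases cannot be told apart.

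Trf encodes transferrin, the iron carrier of plasma, and was expressed at a low level. It had 51.0, 69.4 and 51.3 normalized counts in KO-labelled libraries, against 24.3, 25.9 and 21.0 in WT-labelled libraries. The log2 difference was 1.22 with a standard error of 0.20 (limma adjusted p = 1.2e-05), a difference close in size to that of Saa3 with a larger error. Trf is on chromosome 9 (103204001 to 103230444, minus strand). Of its 60-base stretches, 58.0% occur in transcripts of other genes, above all in Gm20425, an annotated gene on the same strand that shares 2108 exon bases with Trf and has no row in the table used here. The rule by which the counting treated such shared bases is not stated. The description printed on the Trf row belongs to Terf1, which has its own row with 1093 ± 9.03 normalized counts in KO-labelled libraries and 1158 ± 52.5 in WT-labelled libraries (log2 difference -0.08, limma adjusted p = 0.099).

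The lipopolysaccharide carrier moved in the opposite direction to the amyloid, haemoglobin, siderophore and metal carriers. Lbp encodes the plasma protein that hands bacterial lipopolysaccharide to CD14, and in the liver it belongs to the same acute phase programme as Saa2 and Hp. It had 950, 899 and 900 normalized counts in KO-labelled libraries, against 1963, 2173 and 2231 in WT-labelled libraries. No KO-labelled library came near the WT-labelled values, and the mean was 0.432 times that of WT-labelled libraries. The log2 difference was -1.21 (standard error 0.04, limma adjusted p = 2.0e-17). Lbp lies on chromosome 2 (158306493 to 158332852, plus strand). Its partner Cd14 also fell, with 1140 ± 23.7 normalized counts in KO-labelled libraries and 1568 ± 69.7 in WT-labelled libraries (log2 difference -0.46, limma adjusted p = 5.4e-10). The receptor Tlr4 and its partner Ly96 did not pass the test, with log2 differences of -0.01 and -0.09 (limma adjusted p = 0.91 and 0.39).

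Clusterin and apolipoprotein D, carriers of lipids and of misfolded protein, fell as well. Clu had the most counts of the 10 genes. It encodes clusterin, an extracellular chaperone found on lipoproteins, and had 16205, 15236 and 15566 normalized counts in KO-labelled libraries, against 26644, 28937 and 28349 in WT-labelled libraries. The 3 libraries of each group lay close together and far from the other group. The log2 difference was -0.84 (standard error 0.03, limma adjusted p = 7.1e-18), the smallest standard error of the members. Clu lies on chromosome 14 (65968483 to 65981547, plus strand). There 63.1% of the tested genes were lower in KO-labelled libraries, against 28.0% over all chromosomes.

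Apod encodes apolipoprotein D, a lipocalin that binds small hydrophobic molecules. It had 36.5, 40.2 and 46.3 normalized counts in KO-labelled libraries, against 94.2, 145 and 133 in WT-labelled libraries. SARAF-WT 1 was again the lowest of its group, yet it stood above the highest value of KO-labelled libraries, 94.2 against 46.3 counts. The log2 difference was -1.55 with a standard error of 0.16 (limma adjusted p = 1.3e-08), and was -1.74 without SARAF-WT 1. Apod is on chromosome 16 (31296192 to 31314808, minus strand).

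Itih4 encodes a heavy chain of the inter-alpha-trypsin inhibitor family that is made by the liver in the acute phase. It was represented by few reads, 8, 11 and 6 in KO-labelled libraries and 19, 24 and 20 in WT-labelled libraries. As normalized counts these were 6.80, 9.42 and 5.92 in KO-labelled libraries, against 19.2, 24.9 and 26.3 in WT-labelled libraries, with no overlap. The log2 difference of -1.56 had the largest standard error of the members, 0.31 (limma adjusted p = 0.00017). Like Clu, Itih4 lies on chromosome 14 (30886476 to 30902353, plus strand).

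**Figure D2:**
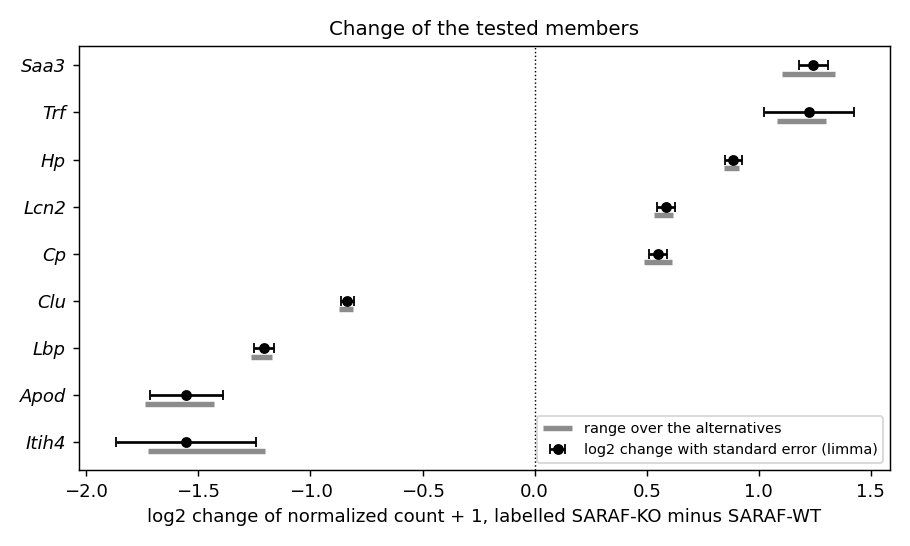
Log2 difference of normalized count + 1, KO-labelled libraries minus WT-labelled libraries (horizontal axis), for the 9 tested genes in order of size. Black points are the limma estimates with 1 standard error, and grey bars give the lowest to highest estimate over the alternative settings. All 9 bars stay on their side of 0, from 1.11 to 1.34 for Saa3 at the top to -1.72 to -1.20 for Itih4 at the bottom.

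A difference in bulk RNA does not separate fewer expressing cells from less RNA per cell, and this holds for each gene above. Divided by exon length, the levels of the 9 tested members ranged 1519-fold. Clu stood first in both groups, at 4559 ± 143 normalized counts per kb in KO-labelled libraries and 8140 ± 346 in WT-labelled libraries (SD, n = 3 each), and ranked 154 of 18118 genes with a known length. Saa3 came second in KO-labelled libraries with 2391 ± 92.8 per kb, over Lcn2 with 2131 ± 126. In WT-labelled libraries, Lcn2 with 1420.1 ± 88.0 per kb stood over Saa3 with 1018 ± 165. Cp and Hp followed at 1310.4 ± 67.9 and 1309.6 ± 24.1 per kb in KO-labelled libraries, where they did not differ beyond their spread. The level of Cp in WT-labelled libraries, 896 ± 77.4 per kb, overlapped that of Saa3 and stood over Hp with 708 ± 34.3. Lbp was at 189.7 ± 6.03 per kb in KO-labelled libraries and 439 ± 29.2 in WT-labelled libraries. Apod and Trf were far below, at 15.9 ± 1.92 and 17.2 ± 3.17 per kb in KO-labelled libraries, which overlap. In WT-labelled libraries they were at 48.1 ± 10.3 and 7.15 ± 0.75 per kb. The Trf level may be too low, as reads in the 2108 exon bases shared with Gm20425 may have been lost in counting. Itih4 with 2.00 ± 0.49 per kb was within the spread of Saa2 with 2.91 ± 1.06 in KO-labelled libraries. The Itih4 level of 6.36 ± 1.01 per kb in WT-labelled libraries overlapped that of Trf.

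Promoter sequence was looked up to show the bases before the start of members that moved in each direction. RefSeq promoters on GRCm38.p6, each 250 bases before to 50 after a start, were found for 6 of the 10 genes: Saa3, Saa2, Lcn2, Cp, Itih4 and Apod. Each was searched on both strands for letters that resemble the sites of the acute phase factors, GGG and CC with 5 free bases between them for NF-κB, TTNNGNAA for C/EBP and TTCNNNGAA for STAT. The part before the start is printed 5′ to 3′ for 2 genes that were higher in KO-labelled libraries (Saa3, chr7:46715677-46715926, minus strand, and Lcn2, chr2:32387740-32387989, minus strand) and for 2 that were lower (Apod, chr16:31314809-31315058, minus strand, and Itih4, chr14:30886226-30886475, plus strand). Capitals mark a match to any of the 3 patterns.
Saa3: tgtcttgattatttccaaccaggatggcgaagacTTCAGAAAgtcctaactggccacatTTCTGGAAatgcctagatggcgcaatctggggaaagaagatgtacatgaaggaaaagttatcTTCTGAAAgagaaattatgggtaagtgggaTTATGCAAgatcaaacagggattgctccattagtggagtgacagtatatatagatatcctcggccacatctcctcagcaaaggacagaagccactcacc
Lcn2: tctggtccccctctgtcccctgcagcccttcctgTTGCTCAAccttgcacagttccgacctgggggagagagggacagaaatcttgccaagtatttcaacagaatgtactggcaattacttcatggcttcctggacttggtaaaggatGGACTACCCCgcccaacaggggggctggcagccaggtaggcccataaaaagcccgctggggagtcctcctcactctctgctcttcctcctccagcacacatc
Apod: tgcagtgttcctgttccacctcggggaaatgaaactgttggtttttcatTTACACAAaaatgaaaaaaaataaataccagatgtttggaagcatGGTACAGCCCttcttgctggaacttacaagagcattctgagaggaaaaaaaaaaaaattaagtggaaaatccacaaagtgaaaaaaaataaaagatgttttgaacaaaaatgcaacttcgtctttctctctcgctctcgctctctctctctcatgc
Itih4: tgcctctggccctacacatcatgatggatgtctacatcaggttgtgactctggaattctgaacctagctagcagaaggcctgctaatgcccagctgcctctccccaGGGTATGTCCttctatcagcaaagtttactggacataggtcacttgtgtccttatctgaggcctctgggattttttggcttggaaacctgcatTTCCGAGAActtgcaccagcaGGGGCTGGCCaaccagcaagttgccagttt

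The Saa3 promoter held 4 matches to the C/EBP letters, beginning 216, 191, 129 and 99 bases before the start, and none to the other patterns. Lcn2 had 1 NF-κB match 102 bases before the start, on the minus strand of the gene, and 1 C/EBP match at 216 bases. Apod carried the same pair of patterns, at 156 and 201 bases before its start. Itih4 had 2 NF-κB matches, at 144 and 30 bases, and 1 STAT match at 51 bases, and no C/EBP match. These letters are common, with the NF-κB pattern in 50.8%, the C/EBP pattern in 40.7% and the STAT pattern in 8.30% of 32851 promoters of the same length. NF-κB and C/EBP matches occurred in promoters of genes that rose and of genes that fell, and a match is a description of letters, not a site of binding.

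Relatives of the members were read from lists of genes written down with earlier results of these data known, and they are given as counts beside the 56.2% of all genes that passed. Of 18 family relatives (serum amyloids, inter-alpha-trypsin inhibitor chains, transferrin-like proteins, ferroxidases, lipocalins and Lbp-like proteins), 6 could be tested. Of these, 4 were higher and 2 lower in KO-labelled libraries, with a median log2 difference of 0.29. The lipocalin Rbp4, the retinol carrier of plasma, rose by 0.78 on the log2 scale (limma adjusted p = 2.2e-09), whereas the lipocalin Ptgds, a prostaglandin D synthase, fell by 0.93 (limma adjusted p = 0.00043). Itih2, a heavy chain that joins hyaluronan in the matrix, rose by 0.32, opposite in direction to Itih4. Pltp, a phospholipid transfer protein of the Lbp family, fell by 0.31, the same direction as Lbp. Orm1, an acute phase lipocalin, was too low to be tested, with 8.50, 11.1 and 6.90 normalized counts in KO-labelled libraries, against 0, 2.07 and 3.94 in WT-labelled libraries.

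Other acute phase genes held both directions. Their list was not sorted by the direction in which each gene moves in the acute phase, so its counts do not score the response. Some genes, such as Rbp4 and Itih2, are shared between lists and are counted in each. Of 45 genes listed, 16 were tested, 8 were higher, 4 were lower and 4 did not pass, and their median log2 difference was 0.15, against -0.00 over all genes tested. The angiotensin precursor Agt had the largest difference of the list, with 42.5, 43.7 and 49.3 normalized counts in KO-labelled libraries, against 8.10, 8.29 and 10.5 in WT-labelled libraries (log2 difference 2.22, limma adjusted p = 5.1e-08). The kininogen Kng1 rose by 0.70 and the long pentraxin Ptx3 by 0.43 on the log2 scale. C3, the central complement component, was at 22939 ± 762 normalized counts in KO-labelled libraries and 15075 ± 1534 in WT-labelled libraries (SD, n = 3 each), a log2 difference of 0.61. The 4 lower genes were the complement component C4b and 3 of the serine protease inhibitor family. C4b fell by 0.75, and Serping1, Serpinf1 and Serpina3g fell by 0.90, 0.66 and 0.43. Serpina3n, a strongly induced acute phase gene of mouse tissues, did not pass the test, with 3842 ± 326 normalized counts in KO-labelled libraries and 3656 ± 505 in WT-labelled libraries (limma adjusted p = 0.31).

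The inducers and factors of the response also held both directions. Of 34 listed cytokines, receptors and transcription factors, 29 were tested, 11 were higher and 11 lower in KO-labelled libraries, and 7 did not pass, with a median of 0.01. Il6 itself was low but higher, with 331, 283 and 314 normalized counts in KO-labelled libraries, against 195, 223 and 201 in WT-labelled libraries (log2 difference 0.58, limma adjusted p = 2.0e-06). The cytokine Il1a had 49.3, 46.2 and 59.2 normalized counts in KO-labelled libraries, against 9.12, 6.22 and 9.19 in WT-labelled libraries, a log2 difference of 2.53. Its accessory receptor chain Il1rap rose by 0.49, while the signalling receptor Il1r1 fell by 0.37. Il6st, the shared receptor chain of the interleukin 6 family, fell by 0.20. Among the factors, Nfkb2 rose by 0.32 and Cebpd by 0.42. Cebpb and Socs3, a direct target of STAT3, did not pass the test, with log2 differences of 0.07 (limma adjusted p = 0.081) and -0.00 (limma adjusted p = 0.93).

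For iron, copper and haem handling, 28 of 30 listed genes were tested, 12 were higher, 10 were lower and 6 did not pass, with a median of -0.02. The transferrin receptor Tfrc, which takes up the iron-loaded product of Trf, had 2668, 2823 and 2886 normalized counts in KO-labelled libraries, against 2180, 2157 and 2009 in WT-labelled libraries (log2 difference 0.40, limma adjusted p = 1.1e-09). The importers Slc39a14 and Slc11a2 rose by 0.81 and 0.35, and the ferritin heavy chain Fth1, the iron store, rose by 0.37. The iron exporter Slc40a1, which works with ferroxidases such as ceruloplasmin, fell by 0.70, with 59.9 ± 6.98 normalized counts in KO-labelled libraries and 98.1 ± 13.5 in WT-labelled libraries (SD, n = 3 each). Tfr2, the sensor of loaded transferrin in the liver, fell by 1.19 but had fewer than 25 counts in every library.

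Lipid carriers, lipoprotein receptors and partners of clusterin or Lbp gave 21 tested of 27 listed, with 7 higher, 8 lower and 6 not passed and a median of -0.09. Lrp2, the megalin receptor that takes up clusterin and lipocalins, had 563, 586 and 650 normalized counts in KO-labelled libraries, against 334, 279 and 340.1 in WT-labelled libraries, a log2 difference of 0.92 (limma adjusted p = 1.3e-10). Fabp5, a fatty acid carrier inside cells, rose by 0.79, and the lipoprotein lipase Lpl fell by 0.68. Apoe fell by 0.53, in the direction of Apod and Clu.

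**Figure D3:**
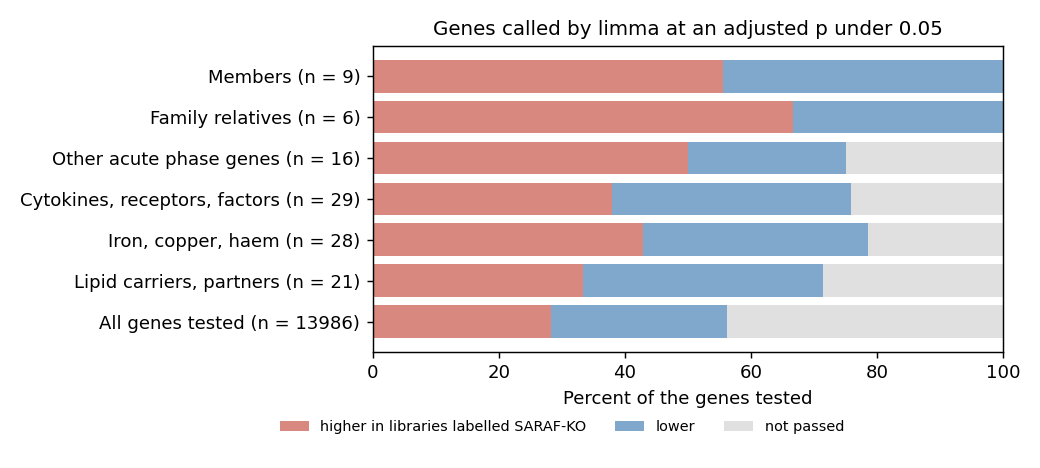
Percent of tested genes (horizontal axis) that were higher (red), lower (blue) or did not pass (grey) in KO-labelled libraries against WT-labelled libraries at a limma adjusted p under 0.05, for the 10 genes studied (9 tested), 5 lists of related genes and all genes tested, with the number tested in parentheses. Every list has both directions and holds 71.4% to 100% called genes, against 56.2% of all 13986 genes. Some genes are shared between lists and are counted in each.

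Cell types other than fibroblasts were checked through markers. Of the hepatocyte markers, Alb, Ahsg, Apoa1 and Serpina1a each averaged below 6 normalized counts in both groups, and the summed level of 7 markers was 228 to 270 in KO-labelled libraries and 202 to 264 in WT-labelled libraries. Most of it was Afp, the fetal albumin-like protein, which was higher of 3 hepatocyte markers tested, with 216 ± 17.9 normalized counts in KO-labelled libraries and 178 ± 35.0 in WT-labelled libraries (SD, n = 3 each; log2 difference 0.29, limma adjusted p = 0.028), although the groups overlapped. Neutrophil markers summed to 8.56 to 20.7 in KO-labelled libraries and 2.07 to 9.12 in WT-labelled libraries, with none of 5 at a mean of 10. Macrophage markers summed to 513 to 530 in KO-labelled libraries and 444 to 462 in WT-labelled libraries. Of 3 tested, Cd53 and Csf1r were higher, and Cd68, the most abundant, did not pass (log2 difference -0.07, limma adjusted p = 0.36). Ptprc was at the floor in both groups, with a mean of 0.33 normalized counts in KO-labelled and 0 in WT-labelled libraries. Mesothelial markers summed to 4864 to 5294 in KO-labelled libraries and 1648 to 1721 in WT-labelled libraries. All 3 tested mesothelial markers, Msln, Krt19 and Wt1, were higher, by 1.65, 1.09 and 0.68 on the log2 scale. Schwann and glial markers summed to 928 to 995 in KO-labelled libraries and 1508 to 1568 in WT-labelled libraries, with Mbp and S100b lower of 4 tested. Sox10 was at the floor in both groups, with a mean of 0 normalized counts in KO-labelled and 1.21 in WT-labelled libraries. Adipocyte markers summed to 1189 to 1421 in KO-labelled and 1188 to 1240 in WT-labelled libraries, with Pparg lower and Fabp4 higher. Epithelial markers summed to 30.6 to 42.8 in KO-labelled and 81.0 to 105 in WT-labelled libraries, with Krt18 lower, and endothelial markers summed to 1256 to 1355 in KO-labelled and 2086 to 2123 in WT-labelled libraries, with Kdr lower and Tek higher. The part of these cells in the values of the members was not tested.

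Position along the chromosome was compared because Clu and Itih4 both lie on chromosome 14. On that chromosome 287 of 455 tested genes (63.1%) were lower in KO-labelled libraries, and 50 were higher. Over all genes tested, 28.0% were lower and 28.2% were higher. Such a count is given for no other chromosome. Within 1 Mb of Itih4, 24 of 30 tested neighbours were lower and 1 was higher, with a median log2 difference of -0.31, and only Sema3g (-2.26) and Dnah1 (-1.68) were lower than Itih4 itself. Around Clu, 10 of 18 neighbours were lower and 3 higher, with a median of -0.34. Among these was Scara3, a scavenger receptor gene next to Clu, whose log2 difference of -0.80 was near the -0.84 of Clu, but Ptk2b and Stmn4 in the same window rose by 1.86 and 1.82.

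The other members were set beside their neighbours in the same way. The 21 tested neighbours of Apod lay between -0.31 and 0.32 on the log2 scale, against -1.55 for Apod. Saa3, with 1.24, exceeded all 25 of its neighbours, whose median was 0.03, and Trf, with 1.22, exceeded all 14 of its own. Hp exceeded its 14 neighbours, Lcn2 exceeded 39 of 41 and Cp exceeded 7 of 8. Of the 16 neighbours of Lbp, 1, Nnat with -1.36, was lower than Lbp. Neighbours that leaned the way of the member were not confined to chromosome 14. Around Lbp 10 were lower and 2 higher, around Trf 8 were higher and 2 lower, and around Hp 6 were higher and 1 lower. The counts of higher and lower neighbours were 7 and 8 for Saa3, 15 and 8 for Lcn2, 3 and 3 for Cp, and 7 and 4 for Apod. The part of the chromosome 14 pattern in the values of Clu, Itih4 and Slc22a17, which lies on the same chromosome, was not tested.

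**Figure D4:**
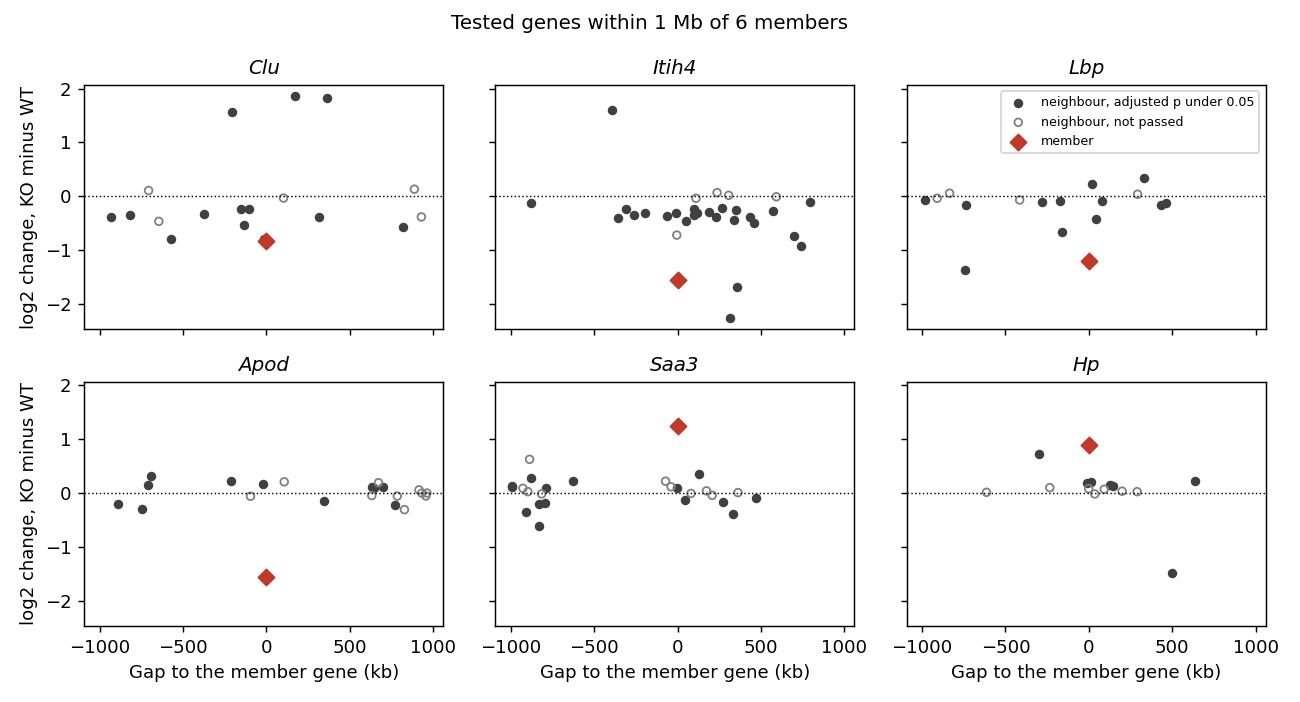
Log2 difference, KO-labelled libraries minus WT-labelled libraries (vertical axis), of tested genes within 1 Mb of 6 members, against the gap to the member (horizontal axis, kb). The red diamond is the member, filled circles are neighbours with a limma adjusted p under 0.05, and open circles are neighbours that did not pass. Most neighbours of Itih4 lie below 0, with a median of -0.31, while those of Apod and Saa3 scatter around 0 with medians of 0.00 and 0.03.

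The order of the libraries within a group was compared across the 10 genes. SARAF-WT 1 was the lowest of its group for 8 of the 10 (Saa3, Hp, Lcn2, Lbp, Cp, Clu, Itih4 and Apod), whereas it was the lowest of its group for 35.1% of all genes tested. The 8 include members that rose and members that fell. SARAF-KO 1 was the highest of its group for 6 of the 10, against 32.7% of all genes. Leaving out SARAF-WT 1 changed no direction and no call among the 9 tested members.

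For each member, the gene with the most similar pattern was sought by Pearson correlation of log2(normalized count + 1) over the 6 libraries. These were Acpp for Saa3, Wisp2 for Hp, Dus4l for Lcn2, Serping1 for Lbp, Il4ra for Cp, Gpc4 for Trf, Pam for Clu, Snx5 for Itih4 and Acss3 for Apod, with r of 0.998 to 1.000. All libraries share the difference between the groups, and 729 to 1935 genes had r over 0.95 with a given member, so these names describe the nearest pattern and no more.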

How the data were processed

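RNA of MEF cultures was sequenced in 6 libraries (3 per label) with an Illumina TruSeq RNA v2 kit, which does not mark strand. The authors used TopHat 2.0.10 and GRCm38 for mapping, HTSeq with an Ensembl annotation for counting and DESeq2 for normalization. The sources used here do not give the settings of HTSeq or the version of DESeq2. The deposited values are a signal per gene and library, namely counts scaled by DESeq2 size factors. The deposited table also holds the authors' mean, fold change, standard error, statistic and p-values, which were not used. All values were whole multiples of the value of 1 read within 1e-06, and these multiples were taken as recovered reads.

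Differences were tested two-sided with limma 3.58.1 in R 4.3.3, with a trended variance, on log2(normalized count + 1). The fit held the 13986 genes whose mean reached 10, p-values were adjusted over all of them by the Benjamini-Hochberg method, and the threshold was 0.05. Differences on this scale understate the change of low genes. No library appeared to be a copy of another, as pairs differed by more than sampling noise (chi-square per degree of freedom, genes of 20 reads or more, 1.53 to 3.99 within a group and 39.3 to 47.2 across groups). Positions and exon lengths came from GENCODE release M21 on GRCm38, which held 18118 (96.0%) of the symbols. The fits were tested on simulated counts. The alternatives, 14 in all, were edgeR 4.0.16 and DESeq2 1.42.0 on the recovered reads, pseudocounts of 0.5 and 5, no filter, a mean of at least 50, TMM scaling, a replicate block and leaving out each library in turn.

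The members and lists were chosen with earlier results of these data known. The genes named by rule were the 10 members, Saraf, from each list the genes called with an absolute log2 difference of at least 1 and the 4 with the smallest adjusted p, and the gene most like each member. Of these, 1 list gene is not reported here. Markers, neighbours, Dlc1, Terf1, Saa1, Orm1, C3, C4b, Serpina3g, Serpina3n, Il6, Il1r1, Il6st, Cebpb, Cebpd, Socs3, Tfrc, Slc40a1, Cd14, Tlr4 and Ly96 were named outside it, after their values were seen.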

Additional observations from a re-analysis of the deposited data

How the results depend on the processing

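All 9 tested members kept their direction and their call under each alternative that could test them, 14 for 7 of them and 13 for Trf and Itih4, which a mean of at least 50 leaves untested, so that 7 members were then called. The log2 differences ranged over the alternatives between 1.11 and 1.34 for Saa3, 0.85 and 0.91 for Hp, 0.53 and 0.62 for Lcn2, 0.49 and 0.61 for Cp, 1.08 and 1.30 for Trf, -1.26 and -1.17 for Lbp, -0.87 and -0.81 for Clu, -1.74 and -1.43 for Apod, and -1.72 and -1.20 for Itih4. Saa2 passed the threshold in DESeq2 on the recovered reads (adjusted p = 0.0080) and in limma without a filter (adjusted p = 4.4e-05), on 25 reads against 1. Genes called numbered 6646 with DESeq2 and 7926 with edgeR, and 6948 to 7910 when 1 library was left out. Labels share replicate numbers, but libraries with the same number did not deviate together (correlations of -0.05 to -0.01). This gave no sign of pairing by number, but 3 libraries per group cannot show that there was none. The highest adjusted p of a tested member over its alternatives was 0.0020, that of Itih4. A replicate block gave 7801 genes and the same 9 members called, and changed no call of a member. Among the lists, the count of lower family relatives moved to 1 with a mean of at least 50, where fewer genes are tested. Depth limits Saa2 and Itih4 most, with 5 to 12 and 6 to 11 reads in a KO-labelled library.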
